A study of Mus musculus with 2 samples.

Results

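The response of foetal mouse testis somatic cells to MEK1/2 inhibition (MEKi) was compared between 24 h and 72 h of culture. The comparison used the 16 XY libraries of the 40 somatic libraries in the series that were cultured with MEKi or with its vehicle. There were 4 libraries in each of 4 groups. For every gene the difference between MEKi and DMSO at 72 h was set against the difference between MEKi and DMSO at 24 h. A positive value of this difference of differences meant a response that was higher at 72 h. Gonads with attached mesonephros were taken at E12.5 from embryos of Oct4-eGFP 129T2svJ males and Swiss females. They were cultured in DMSO or in 500 nM PD0325901, an inhibitor of the kinases MEK1 and MEK2, and freed of the mesonephros afterwards. Gonads were pooled within a sample, and the cells measured were those that carried no germ cell reporter (GFP-negative) after fluorescence-activated sorting. Each library was thus a mixture of all testis somatic cell types in an outbred cross.

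The 4 groups were XY DMSO for 24 h (libraries M2, M3, M4 and M5), XY MEKi for 24 h (M1, M2, M4 and M6), XY DMSO for 72 h (M2, M4, M5 and M6) and XY MEKi for 72 h (M2, M3, M4 and M5). Values below are given in that order. All 24 h libraries of this comparison were made in library set 3 and all 72 h libraries in set 4. Time in culture and library set therefore cannot be told apart when levels are compared between 24 h and 72 h, whereas each treatment effect was measured within 1 set.

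MEK1 and MEK2 phosphorylate the kinases ERK1 and ERK2, which switch on genes such as the Sprouty and dual-specificity phosphatase genes that in turn dampen the pathway. In the foetal testis, Sertoli cells, specified by SRY and SOX9, form the cords that enclose the germ cells. Signals from Sertoli cells support the differentiation of foetal Leydig cells from interstitial progenitors. Leydig cells convert cholesterol to androgens through a chain of enzymes that includes CYP11A1, HSD3B1 and CYP17A1. The interstitium also holds endothelial cells, pericytes, macrophages and contractile cells.

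Libraries held between 1560113 and 4836550 deduplicated molecule counts. The smallest library was in the XY MEKi group at 24 h, which ranged from 1560113 to 2843558. The lowest group median was that of XY DMSO at 72 h (2055269). Of 42422 genes in the count table, 15125 passed the filter on low counts and were tested, and levels are given as CPM, which are counts scaled to a common library total and for library composition. A gene was called a differentially expressed gene (DEG) at an adjusted p below 0.05 and a change of at least 1.5-fold, by the quasi-likelihood test in edgeR. P-values were adjusted by the Benjamini-Hochberg method over all genes tested, and every adjusted p below is from that test. Library M2 of the 24 h MEKi group was named in the count table and in the deposited barcode list but not in the sample description of its library set, and without it, 180 rather than 213 genes differed between the times. Libraries 24 h MEKi M4 and 24 h DMSO M2 stood apart for several Sertoli or Leydig cell genes described below, and 297 genes differed without both. The labels do not say that samples with different numbers came from separate litters, so p-values measure the spread between these pooled samples.

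The response to MEKi differed between the times for 213 genes, which was 1.41% of those tested. It was higher at 72 h for 84 genes (0.555%) and lower at 72 h for 129 genes (0.853%). An unadjusted p below 0.05 for the difference in edgeR was found for 2046 of the 15125 genes tested. Counts at that threshold in the lists below are to be read beside it. Within each time, 495 genes (3.27%) were DEGs at 24 h, 195 of them higher (1.29%) and 300 lower (1.98%) with MEKi. At 72 h, 979 genes (6.47%) were DEGs, 346 higher (2.29%) and 633 lower (4.19%). The count of 213 was the least stable of these. In tests against a change of at least 1.5-fold, rather than any change, 8 genes differed between the times by edgeR and 1, Ebf1, by limma voom, the kind of test used in the study. The count lay between 97 and 276 when each of the 16 libraries was left out in turn. It was 97 without 24 h MEKi M1, 118 without 24 h DMSO M5, 134 without 72 h DMSO M4, 135 without 24 h MEKi M6 and 139 without 72 h MEKi M3.

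Most of the 213 genes were DEGs at 1 time only. A late response, with the gene a DEG at 72 h in the direction of the difference and not a DEG at 24 h, was found for 40 genes that were higher and 59 that were lower at 72 h. An early response, with the gene a DEG at 24 h and not at 72 h, was found for 15 genes that were lower and 25 that were higher with MEKi at 24 h. Another 61 genes were DEGs at neither time by themselves, 26 with a higher and 35 with a lower response at 72 h. The remaining 13 were DEGs at both times, of which 8 turned their direction, 4 had a larger response at 72 h and 1 a smaller one. A further 196 genes were DEGs in the same direction at both times with no called difference, 155 lower and 41 higher.

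Across all 15125 genes, the log2 fold changes at 24 h and 72 h had a Pearson correlation of 0.411, given as a description over genes, which are not independent. The comparisons at the 2 times shared no library. Of the 495 DEGs at 24 h, 201 were DEGs in the same direction at 72 h (40.6% of the 24 h DEGs and 20.5% of the 72 h DEGs), and 412 had an estimate of the same sign at 72 h. Of the 979 DEGs at 72 h, 757 had an estimate of the same sign at 24 h. Only 53 of the 24 h DEGs and 112 of the 72 h DEGs had a called difference between the times, so a gene that was a DEG at 1 time only was in most cases not shown to respond differently.

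**Figure D1:**
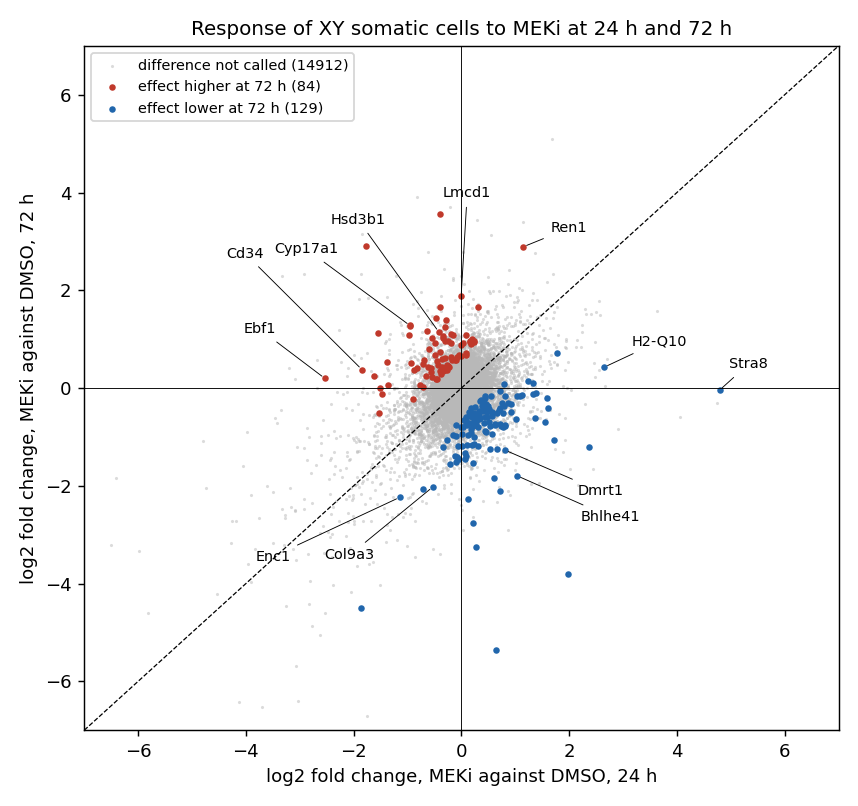
Log2 fold change of MEKi against DMSO at 24 h (horizontal) and at 72 h (vertical) for the 15125 genes tested, with the 213 genes whose response differed between the times coloured by the direction of the difference and the dashed line marking equal fold changes. Stra8 lies far to the right of the other labelled genes, Ebf1 and Cd34 lie to the left near a 72 h value of 0, and Hsd3b1 and Cyp17a1 lie to the upper left.

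Many genes that ERK switches on fell with MEKi at both times. Of 22 tested genes on a list of 24 ERK feedback and target genes, 12 fell at 24 h and 13 at 72 h, 11 of them at both. No difference between the times was called by edgeR for any of the 22 (1 had an unadjusted p below 0.05), nor by DESeq2 or limma voom. The median log2 fold change of the list was -0.85 at 24 h and -0.94 at 72 h, and its median difference was -0.13, beside 0.00 over all genes tested. Dusp6, a phosphatase that inactivates ERK, was at 65.2, 73.8, 79.5 and 67.7 CPM in 24 h DMSO and at 14.7, 20.6, 26.7 and 15.9 CPM in 24 h MEKi. In the 72 h libraries it was at 76.0, 120.3, 93.8 and 81.4 CPM in DMSO and at 10.4, 26.4, 24.2 and 19.9 CPM in MEKi. The groups did not overlap at either time. The log2 fold changes were -1.86 ± 0.22 (SE) and -2.16 ± 0.21, and the difference was -0.30 with a 95% interval from -0.92 to 0.32 (adjusted p = 0.732).

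Etv5, an ETS-family transcription factor induced by ERK signalling, changed by -1.60 on the log2 scale at 24 h and by -2.09 at 72 h (difference -0.49, 95% interval -1.13 to 0.15, adjusted p = 0.52). Spry4, a feedback inhibitor of receptor tyrosine kinase signalling, had the widest gap on the list, with -1.72 at 24 h and -3.33 at 72 h. Its levels were 5.87, 2.66, 13.4 and 4.10 CPM in 24 h MEKi, where M4 was the highest, and 1.42, 1.53, 2.51 and 2.16 CPM in 72 h MEKi. The Spry4 difference of -1.60 ± 0.51 did not pass the threshold (adjusted p = 0.0988), and it lay between -1.82 and -0.91 when single libraries were left out. The intervals were wide, with a median width of 1.44 on the log2 scale over the list, and 21 of the 22 included 0. Differences of less than about 1 log2 unit were often not detectable at this depth and number of libraries.

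**Figure D2:**
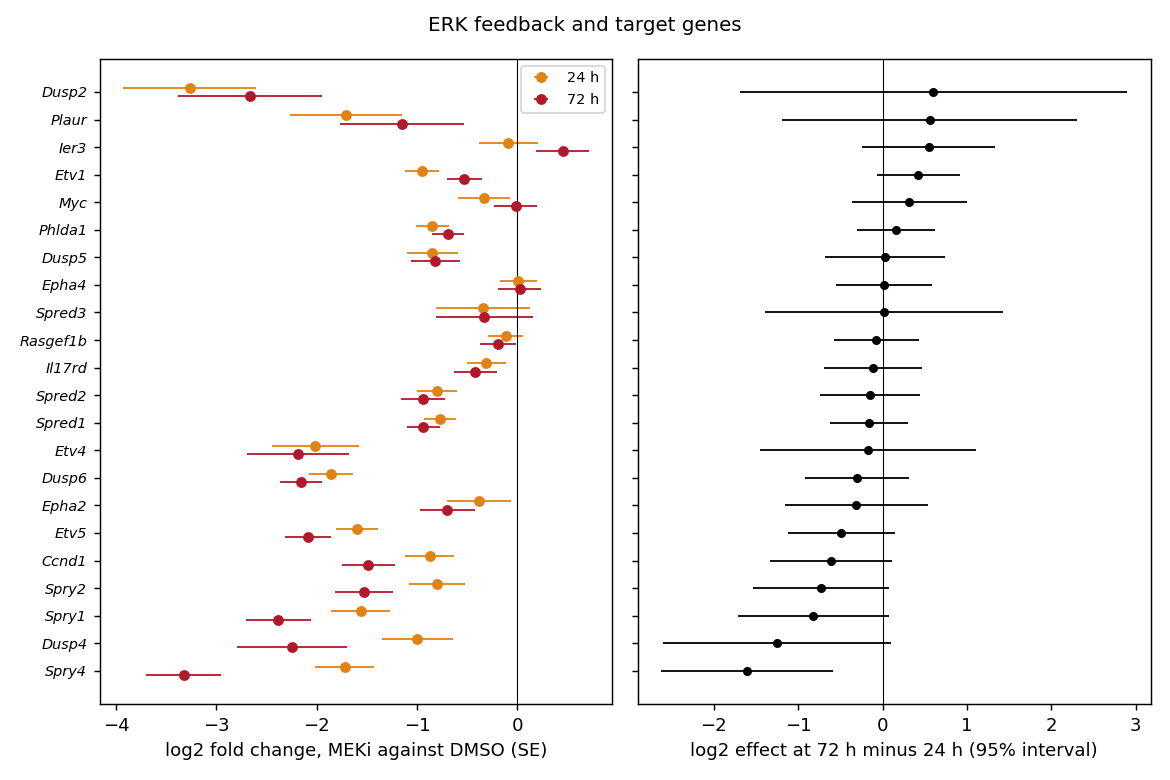
Log2 fold change of MEKi against DMSO for the tested ERK feedback and target genes at 24 h and at 72 h, with standard errors (left), and the difference between the times with its 95% interval (right), from the edgeR fit on 4 libraries per group. The intervals of Dusp6 (-0.92 to 0.32) and Etv5 (-1.13 to 0.15) include 0, and that of Spry4 (-2.62 to -0.59) does not.

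Immediate-early genes, which serum and growth factors induce within minutes, were lower at both times in part. Of 20 tested, 6 fell at 24 h and 5 at 72 h, 4 of them at both, and 0 had a called difference by edgeR (4 at an unadjusted p below 0.05; DESeq2 called 2 and limma voom 1). Egr1, a zinc finger factor that ERK induces through its ternary complex factors, changed by -1.18 at 24 h and -0.63 at 72 h (difference 0.54 ± 0.20, adjusted p = 0.167). The 12 genes of the MEK-ERK cascade itself, the kinases and their upstream GTPases and RAF kinases, held 0 DEGs at 24 h, 0 at 72 h and 0 called differences by edgeR, DESeq2 or limma voom, with 1, 0 and 1 genes at an unadjusted p below 0.05 and a median difference of -0.16.

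Foetal Leydig cell genes had a late increase. Of 13 tested genes on a list of 15, 1 rose and 1 fell at 24 h, whereas 7 rose and 0 fell at 72 h. A difference was called by edgeR for 5, all higher at 72 h: Hsd3b1, Cyp17a1, Gsta2, Ren1 and Cyp11a1. DESeq2 called 3 and limma voom 5 on the list. Ren1 was called by neither of them, and Cyp11a1 was not called by DESeq2. The estimate of the difference was positive for 10 of the 13 genes and negative for 3, the lowest at -1.07. The list's median log2 fold change was -0.09 at 24 h and 0.74 at 72 h, and its median difference was 0.68. Leaving out single libraries moved that median between 0.52 and 1.15, the highest without 72 h DMSO M5, and it was 1.05 without both 24 h DMSO M2 and 24 h MEKi M4. These were bulk samples, in which more cells of a type and more RNA per cell cannot be told apart, here and for every cell type below.

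Hsd3b1 (chr3:98757367-98767116 in GRCm39, a protein-coding gene) encodes the enzyme that converts pregnenolone to progesterone. At 24 h it was at 421, 348, 389 and 596 CPM in DMSO and at 298, 310.2, 389.5 and 309.5 CPM in MEKi, where the groups overlapped. After 72 h it was at 253, 254, 351 and 241 CPM in DMSO and at 578, 548, 807 and 494 CPM in MEKi, where every MEKi library was above every DMSO library. The log2 fold change was -0.42 ± 0.17 at 24 h (adjusted p = 0.175) and 1.15 ± 0.17 at 72 h (adjusted p = 3.34e-06). The difference of 1.56 ± 0.24 was a DEG call (adjusted p = 0.000151) that held with each library left out.

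Cyp17a1 (chr19:46655604-46661611) encodes the enzyme that carries progesterone on towards androgens, and it was the gene of this list that turned its direction. In 24 h DMSO it was at 82.0, 85.8, 95.2 and 122 CPM, above all 24 h MEKi libraries, which were at 36.2, 36.5, 66.8 and 55.2 CPM. In 72 h DMSO it was at 23.0, 24.9, 31.4 and 32.8 CPM, below all 72 h MEKi libraries, which were at 56.4, 51.2, 109 and 49.1 CPM. It therefore fell at 24 h (log2 fold change -0.95 ± 0.24, adjusted p = 0.0114) and rose at 72 h (1.28 ± 0.27, adjusted p = 0.000868), a difference of 2.23 ± 0.36 (adjusted p = 0.000249). The level in DMSO was lower at 72 h than at 24 h, where time and library set cannot be told apart.

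Cyp11a1 (chr9:57913694-57935933), which makes pregnenolone from cholesterol, was at 131, 147, 118 and 175 CPM in 24 h DMSO and at 115, 102, 169.6 and 122 CPM in 24 h MEKi. At 72 h it was at 88.0, 103, 167 and 135 CPM in DMSO and at 295, 199, 313 and 230.2 CPM in MEKi, with no overlap. The difference of 1.23 ± 0.33 was close to the threshold (adjusted p = 0.0426) and the call was lost when any of 8 of the 16 libraries was left out, with adjusted p-values of up to 0.115. Gsta2, a glutathione S-transferase gene with near-identical paralogues among which reads could be split, changed by -0.31 at 24 h and rose by 1.24 at 72 h (difference 1.55 ± 0.30, adjusted p = 0.00222).

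Ren1, the renin gene, was higher with MEKi at both times. It was at 54.2, 51.2, 38.9 and 52.1 CPM in 24 h DMSO against 112, 136, 103 and 84.3 CPM in 24 h MEKi. At 72 h it was at 5.33, 2.48, 7.98 and 4.76 CPM in 72 h DMSO against 59.7, 34.0, 36.1 and 24.3 CPM in 72 h MEKi. The log2 fold change was 1.15 ± 0.26 at 24 h and 2.89 ± 0.38 at 72 h. The difference of 1.74 ± 0.47 had an adjusted p of 0.0415 and was lost when any of 11 of the 16 libraries was left out. Pericytes can also express renin, and Ren1 was on that list too, where 7 of the 10 tested genes fell at both times and Ren1 was the member that rose at both.

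The other Leydig cell genes were not called. Lhcgr, the receptor for luteinising hormone, changed by -0.09 at 24 h and rose by 1.06 at 72 h (difference 1.16 ± 0.38, adjusted p = 0.112). Fdx1, the ferredoxin that passes electrons to CYP11A1, rose by 0.74 at 72 h (difference 0.61 ± 0.23, adjusted p = 0.198). Star, which brings cholesterol into mitochondria, changed by -0.02 at 24 h and 0.31 at 72 h, a difference of 0.33 with a 95% interval from -0.21 to 0.87 (adjusted p = 0.636). Nr5a1, the steroidogenic factor that both Leydig and Sertoli cells use, changed by 0.27 and 0.25 (difference -0.02 ± 0.14, adjusted p = 0.975).

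**Figure D3:**
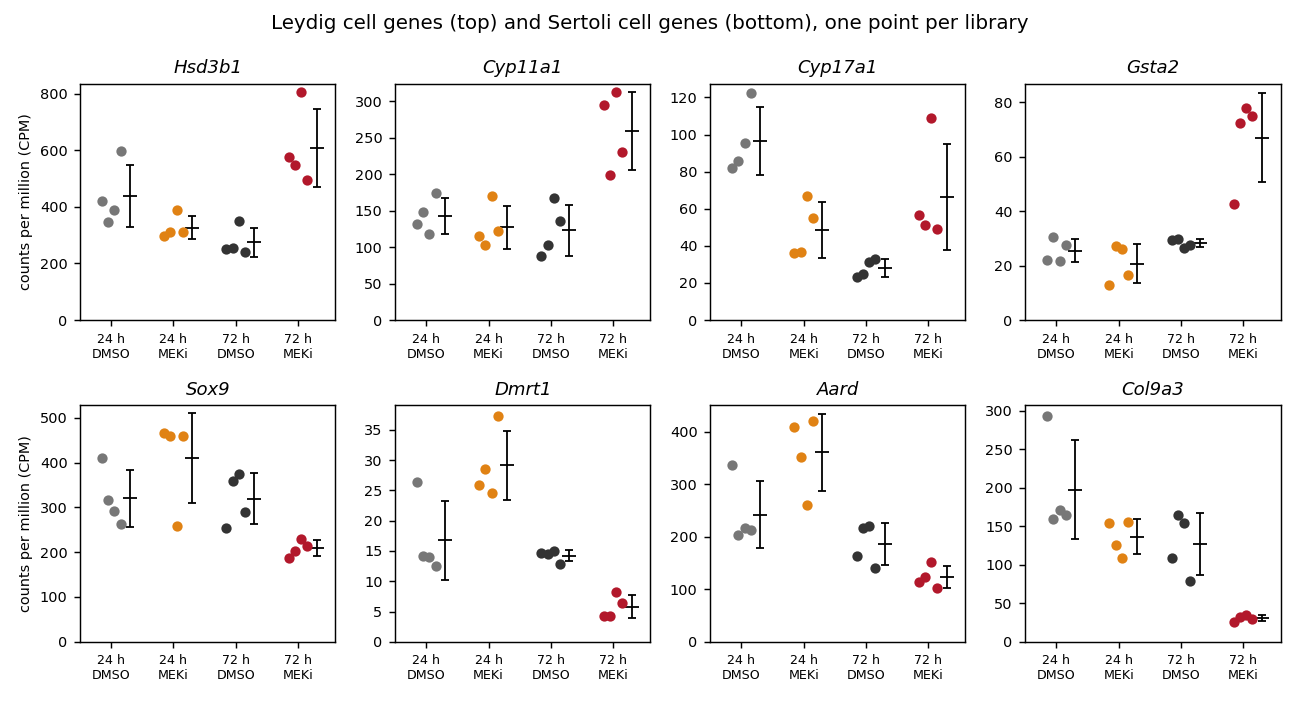
CPM of Leydig cell and Sertoli cell genes in each of the 16 libraries, with points for libraries and bars for the group mean ± SD, for DMSO and MEKi at 24 h and at 72 h. The 72 h MEKi libraries of Hsd3b1 (494 to 807 CPM) all sit above those of 72 h DMSO (241 to 351 CPM), and the 72 h MEKi libraries of Sox9 (187 to 229 CPM) all sit below those of 72 h DMSO (254 to 375 CPM).

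Sertoli cell genes moved the other way. Of 25 genes tested, 3 rose and 1 fell at 24 h, and 2 rose and 11 fell at 72 h. A difference was called by edgeR for 5, all lower at 72 h: Dmrt1, Aard, Col9a3, Inhbb and Sox9. DESeq2 called 4, without Sox9, and limma voom called 9. The median log2 fold change of the list was 0.34 at 24 h and -0.65 at 72 h, and the median difference was -0.99. The estimate of the difference was negative for 24 of the 25 genes, the exception being Nr0b1. The median difference lay between -1.17 and -0.86 with single libraries left out and was -1.34 without both 24 h DMSO M2 and 24 h MEKi M4.

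Sox9 (chr11:112673009-112678586), the transcription factor that directs Sertoli cell fate, was at 409.7, 316, 292 and 264 CPM in 24 h DMSO and at 465, 458, 258 and 459 CPM in 24 h MEKi. Library M4 was far below the other 3 MEKi libraries, and the groups overlapped. At 72 h Sox9 was at 254, 358, 375 and 289 CPM in DMSO and at 187, 202, 229 and 215 CPM in MEKi, where every MEKi library was lower. The log2 fold change was 0.35 ± 0.18 at 24 h (adjusted p = 0.324) and -0.61 ± 0.18 at 72 h (adjusted p = 0.0228). The difference of -0.96 ± 0.26 (adjusted p = 0.0391) lost its call when any of 10 of the 16 libraries was left out, with values from -1.14 to -0.88 and adjusted p-values of up to 0.103.

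Dmrt1 (chr19:25482860-25581693), which maintains the male identity of Sertoli cells and is also expressed in germ cells, turned its direction. It was at 26.4, 14.2, 14.0 and 12.4 CPM in 24 h DMSO, where M2 was the highest, and at 25.9, 28.6, 24.7 and 37.4 CPM in 24 h MEKi. In the 72 h libraries it was at 14.7, 14.4, 15.0 and 12.8 CPM in DMSO and at 4.27, 4.20, 8.16 and 6.47 CPM in MEKi. The gene rose at 24 h (log2 fold change 0.81 ± 0.25, adjusted p = 0.0469) and fell at 72 h (-1.27 ± 0.31, adjusted p = 0.00511). The difference of -2.08 ± 0.40 was called with every library left out (adjusted p = 0.00194).

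Aard, an alanine- and arginine-rich domain gene of foetal Sertoli cells, was at 336, 203, 217 and 212 CPM in 24 h DMSO and at 409, 352, 260.3 and 419 CPM in 24 h MEKi. After 72 h it was at 163, 217, 221 and 140.4 CPM in DMSO and at 114, 123, 152 and 102 CPM in MEKi. Its difference was -1.15 ± 0.23 (adjusted p = 0.00237), although its change of 0.57 at 24 h and of -0.58 at 72 h each stayed just under 1.5-fold. Col9a3, a chain of collagen IX that Sertoli cells express, was lower with MEKi in every library at both times. Its log2 fold changes were -0.53 ± 0.20 (adjusted p = 0.131) and -2.02 ± 0.24 (adjusted p = 1.11e-08), a difference of -1.49 ± 0.31 (adjusted p = 0.00424).

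Inhbb, the beta B subunit of inhibin and activin, was at 108, 76.3, 64.2 and 49.0 CPM in 24 h DMSO and at 95.8, 46.5, 64.7 and 75.2 CPM in 24 h MEKi, where the groups overlapped. At 72 h it was at 82.0, 81.5, 99.2 and 68.1 CPM in DMSO and at 32.7, 34.8, 44.0 and 32.4 CPM in MEKi. The difference of -1.12 ± 0.29 (adjusted p = 0.0354) lost its call when any 1 of 10 libraries was left out. Amh, the anti-Müllerian hormone of Sertoli cells, was weakly detected, with a mean of 3.57 CPM in 72 h DMSO, and its difference of -2.24 ± 0.80 was not called (adjusted p = 0.162). Fgf9, the growth factor that sustains Sox9, differed by -0.23 ± 0.34 (adjusted p = 0.833). Cldn11, a tight junction gene of Sertoli cells, rose at both times (log2 fold changes 1.15 and 0.73, difference -0.41 ± 0.27, adjusted p = 0.526).

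Most of the 129 genes with a lower response at 72 h lay outside the Sertoli cell list, Wnt6, Kitl and Wt1 among them. Wnt6, a secreted WNT ligand, was at 177, 132, 139.8 and 135 CPM in 24 h DMSO and 180.4, 179, 118 and 152 CPM in 24 h MEKi. Its 72 h levels were 86.6, 122, 130.2 and 75.2 CPM in 72 h DMSO and 41.7, 50.1, 51.2 and 38.3 CPM in 72 h MEKi. Its log2 fold changes were 0.10 and -1.17, a difference of -1.27 ± 0.22 (adjusted p = 0.000417). Kitl, the ligand through which somatic cells support germ cells, differed by -0.74 ± 0.18 (adjusted p = 0.0164). Wt1, a factor of Sertoli and coelomic epithelial cells, differed by -0.62 ± 0.15 (adjusted p = 0.0165). Neither was a DEG at either time, and the call of Kitl was lost without 24 h MEKi M1 (adjusted p = 0.0655) and that of Wt1 without 24 h MEKi M1 or 72 h MEKi M5 (adjusted p of up to 0.0666).

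Early decreases that were not called at 72 h were led by Ebf1 and Cd34. Ebf1 (chr11:44508138-44898918), an early B cell factor that is also a transcription factor of mesenchymal cells, was at 41.7, 55.4, 50.8 and 61.8 CPM in 24 h DMSO and at 8.80, 4.65, 11.3 and 9.57 CPM in 24 h MEKi. In the 72 h libraries it was at 105, 73.1, 87.8 and 70.4 CPM in DMSO and at 62.1, 107, 103 and 115 CPM in MEKi, with overlap. It fell by 2.53 ± 0.25 on the log2 scale at 24 h, and its change at 72 h was 0.20 ± 0.18 (adjusted p = 0.518). The difference of 2.73 ± 0.31 had the smallest adjusted p of all 15125 genes (1.29e-07), and Ebf1 was the one followed gene whose call held in every alternative run.

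Cd34 (chr1:194621029-194647172), a surface sialomucin of endothelial cells and of many mesenchymal progenitors, was at 21.8, 20.1, 32.6 and 33.8 CPM in 24 h DMSO and at 8.80, 5.31, 6.85 and 8.66 CPM in 24 h MEKi. After 72 h it was at 61.0, 63.6, 54.4 and 42.4 CPM in DMSO and at 64.9, 60.4, 84.8 and 78.2 CPM in MEKi. The groups were apart at 24 h and overlapped at 72 h, and the difference was 2.23 ± 0.29 (adjusted p = 2.01e-06). Of the 24 pan-endothelial genes tested, 20 fell at 24 h and 17 at 72 h, 17 of them at both, with median log2 fold changes of -2.23 and -2.55. Cd34 was the 1 member with a difference called by edgeR, while DESeq2 called 2 and limma voom 1. An unadjusted p below 0.05 for the difference in edgeR was found for 10 of the 24. The estimate of the difference was positive for 13 and negative for 11, from -3.36 to 2.23.

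Mgp, matrix Gla protein, an inhibitor of calcification, was at 57.8, 44.7, 45.4 and 54.0 CPM in 24 h DMSO and at 22.5, 28.6, 22.3 and 36.0 CPM in 24 h MEKi. Its 72 h levels were 131, 149, 137 and 122 CPM in DMSO and 153, 184, 159 and 201 CPM in MEKi. It fell at 24 h (log2 fold change -0.88 ± 0.16), while its change at 72 h of 0.37 ± 0.13 was not called although the libraries did not overlap (adjusted p = 0.0608). The difference was 1.25 ± 0.21 (adjusted p = 0.00037). Serpina3g, a serine protease inhibitor gene of a family with close paralogues, fell by 1.5 at 24 h and changed by less than 0.01 at 72 h (difference 1.5 ± 0.29, adjusted p = 0.00222). Tmem255a fell by 1.62 at 24 h and changed by 0.24 at 72 h (difference 1.86 ± 0.35, adjusted p = 0.00171). Angpt1, the ligand of the endothelial receptor TIE2, fell by 1.38 at 24 h and changed by 0.53 at 72 h, but its difference of 1.92 ± 0.53 (adjusted p = 0.0452) was lost when any 1 of 13 libraries was left out.

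**Figure D4:**
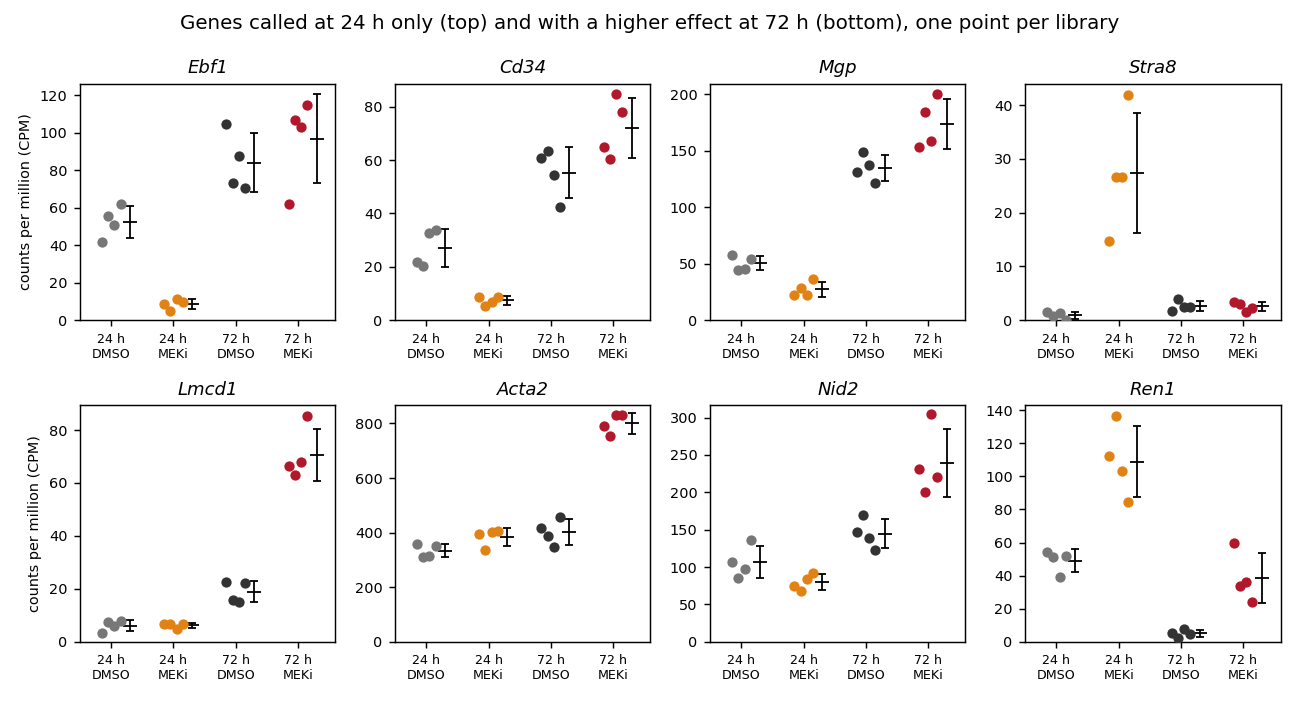
CPM in each of the 16 libraries for genes called at 24 h only (top) and genes with a higher response at 72 h (bottom), with points for libraries and bars for the group mean ± SD. Ren1, in the bottom row, was a DEG at both times. Ebf1 in 24 h MEKi (4.65 to 11.3 CPM) lies below 24 h DMSO (41.7 to 61.8 CPM) and overlaps it at 72 h, whereas Lmcd1 in 72 h MEKi (63.0 to 85.2 CPM) lies above 72 h DMSO (15.0 to 22.7 CPM) and overlaps it at 24 h.

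Early increases included a meiotic entry gene. Stra8 (chr6:34897098-34916279), which retinoic acid induces in germ cells entering meiosis, was at 1.43, 0.746, 1.34 and 0 CPM in 24 h DMSO and at 14.7, 26.6, 26.7 and 41.9 CPM in 24 h MEKi. At 72 h it was at 1.67, 3.98, 2.49 and 2.38 CPM in DMSO and at 3.32, 3.06, 1.57 and 2.16 CPM in MEKi. It rose by 4.79 ± 0.50 at 24 h and changed by -0.04 ± 0.61 at 72 h, a difference of -4.84 ± 0.83 (adjusted p = 0.000477), which rested on 14 counts over the 4 libraries of 24 h DMSO. Of 13 meiotic entry genes tested on a list of 21, 7 rose at 24 h and 0 at 72 h (0 at an unadjusted p below 0.05, and 0 by DESeq2 or limma voom). All 13 differences were negative in their estimate, and Stra8 was the 1 called.

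Among 11 tested germ cell identity genes in these sorted somatic cells, 3 rose at 24 h, Kit fell and 7 were not called, and at 72 h only Prdm1 was called, lower on 2 counts in MEKi. The summed level of the 11 was 134 to 191 CPM in 24 h DMSO, 291 to 503 CPM in 24 h MEKi, 36.6 to 51.4 CPM in 72 h DMSO and 29.1 to 47.0 CPM in 72 h MEKi. It was higher with MEKi in every library at 24 h. Dazl, Ddx4 and Dppa3, which mark germ cells, rose at 24 h (log2 fold changes 1.5, 1.33 and 1.37) and were not called at 72 h (0.14, -0.38 and -0.11). The part of these germ cell transcripts in the early increases was not tested.

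H2-Q10, a class Ib histocompatibility gene of a multigene family among which reads could be split, was at 5.71, 3.73, 6.51 and 7.0 CPM in 24 h DMSO and at 29.8, 37.2, 25 and 52.9 CPM in 24 h MEKi. Its 72 h levels were 11.7, 11.4, 8.48 and 6.66 CPM in DMSO and 9.95, 12.2, 11.6 and 18.9 CPM in MEKi. It rose by 2.65 at 24 h and changed by 0.43 at 72 h (difference -2.22 ± 0.44, adjusted p = 0.00227). Wfdc2, a protease inhibitor of duct epithelia, rose by 1.61 at 24 h and changed by -0.42 at 72 h (difference -2.02 ± 0.41, adjusted p = 0.00296). Rarres1, a retinoic acid receptor responder, rose by 1.55 at 24 h and changed by -0.70 at 72 h (difference -2.24 ± 0.41, adjusted p = 0.00127). Of 17 retinoic acid metabolism and response genes tested, 3 rose and 2 fell at 24 h, 6 rose and 1 fell at 72 h, and 0 had a called difference by edgeR (5 at an unadjusted p below 0.05; DESeq2 called 1 and limma voom 2).

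Late increases reached beyond the Leydig cell genes. Lmcd1, a LIM and cysteine-rich domain factor that can repress GATA6, was at 3.21, 7.46, 6.13 and 7.78 CPM in 24 h DMSO and at 6.85, 6.64, 4.8 and 6.84 CPM in 24 h MEKi. In the 72 h libraries it was at 22.7, 15.9, 15.0 and 22.4 CPM in DMSO and at 66.3, 63.0, 67.8 and 85.2 CPM in MEKi. It rose by 1.88 ± 0.22 at 72 h and its change at 24 h was under 0.01, a difference of 1.88 ± 0.38 (adjusted p = 0.00302).

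Acta2, the smooth muscle actin gene, was at 358, 312, 314 and 351 CPM in 24 h DMSO and at 395, 336, 401 and 405 CPM in 24 h MEKi. After 72 h it was at 418, 388, 346 and 456 CPM in DMSO and at 789.6, 752, 832 and 832 CPM in MEKi, with no overlap. Its log2 fold change was 0.21 ± 0.12 at 24 h and 0.99 ± 0.12 at 72 h, a difference of 0.79 ± 0.17 (adjusted p = 0.00678). Of 15 smooth muscle and contractile genes, 0 were DEGs at 24 h by edgeR (4 at an unadjusted p below 0.05, with 1 call each by DESeq2 and limma voom) and 5 rose at 72 h. Of the 15 differences, 14 were positive in their estimate with a median of 0.79, and Acta2 was the 1 called. Myh11, the smooth muscle myosin heavy chain, rose by 1.06 at 72 h (difference 0.79 ± 0.28, adjusted p = 0.155).

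Interstitial progenitor genes gave 4 called differences among 17 tested, all higher at 72 h. Vcam1, a cell adhesion molecule, was at 25, 27.3, 28.7 and 28.8 CPM in 24 h DMSO and at 22.5, 15.3, 27.1 and 21.9 CPM in 24 h MEKi. Its 72 h levels were 34.6, 38.3, 50.4 and 47.1 CPM in DMSO and 79.6, 70.3, 83.8 and 96.0 CPM in MEKi, without overlap. Its difference was 1.27 ± 0.29 (adjusted p = 0.0112). Ptn, the heparin-binding growth factor pleiotrophin, differed by 0.68 ± 0.15 (adjusted p = 0.00601), and Mgp was also among those called. The list's median difference was 0.18. Nid2, a basement membrane nidogen, changed by -0.40 at 24 h and rose by 0.73 at 72 h (difference 1.13 ± 0.22, adjusted p = 0.00171).

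Several of the largest late increases were in weakly expressed genes. Trim9, a ubiquitin ligase of neurons, changed by -0.97 at 24 h (adjusted p = 0.0688) and rose by 1.09 at 72 h (difference 2.05 ± 0.43, adjusted p = 0.00485). The long non-coding RNA 8030451A03Rik rose by 1.67 at 72 h, from 1.49 to 4.49 CPM in DMSO to 7.55 to 12.3 CPM in MEKi (difference 2.06 ± 0.41, adjusted p = 0.0028). Ntrk2, the receptor of brain-derived neurotrophic factor, rose by 1.29 at 72 h (difference 2.25 ± 0.62, adjusted p = 0.0464), but it had 18 counts in 24 h MEKi and its call was lost when any 1 of 12 libraries was left out. The calls of Ly6h, a member of the Ly6 family (difference 1.90 ± 0.48, adjusted p = 0.0305), and Adra1a, the alpha-1A adrenergic receptor (2.69 ± 0.72, adjusted p = 0.0395), were lost when any 1 of 7 and of 11 libraries, respectively, was left out.

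Late decreases numbered 59. Hk2, the hexokinase that starts glycolysis, was at 95.6, 95.4, 106 and 87.6 CPM in 72 h DMSO and at 53.1, 60.8, 71.0 and 54.5 CPM in 72 h MEKi, while the 24 h groups overlapped. Its difference of -0.77 ± 0.20 (adjusted p = 0.038) was lost when any 1 of 11 libraries was left out, and it was the 1 called member among 21 glycolysis and hypoxia response genes. Smad7, an inhibitor of TGF-beta family signalling, fell by 0.60 at 72 h (difference -0.83 ± 0.22, adjusted p = 0.0354, lost when any 1 of 7 libraries was left out). Rsad2 and Rtp4, both induced by interferon, fell by 2.10 and 1.83 at 72 h. Their differences of -2.82 ± 0.70 (adjusted p = 0.0239) and -2.44 ± 0.67 (adjusted p = 0.0464) rested on 12 and 19 counts in 72 h MEKi and were lost when any 1 of 4 and of 13 libraries, respectively, was left out. Mlxipl, a glucose-responsive transcription factor, was at 16.3, 19.9, 25.9 and 14.8 CPM in 72 h DMSO and at 4.74, 8.03, 11.6 and 6.47 CPM in 72 h MEKi. It fell by 1.25 at 72 h and changed by 0.54 at 24 h, a difference of -1.79 ± 0.40 (adjusted p = 0.00854) that was called with every library left out. Elapor1 fell by 2.26 at 72 h (difference -2.39 ± 0.64, adjusted p = 0.0384, lost when any 1 of 11 libraries was left out).

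Genes that were DEGs at both times but differed in size were few. Enc1, an actin-binding kelch protein, was at 92.7, 123, 109 and 94.1 CPM in 24 h DMSO against 45.5, 40.5, 64.4 and 36.9 CPM in 24 h MEKi. Its 72 h levels were 77.6, 80.0, 72.3 and 91.4 CPM in DMSO and 17.5, 24.1, 11.3 and 15.6 CPM in MEKi. Its log2 fold change was -1.14 ± 0.16 at 24 h and -2.23 ± 0.19 at 72 h, a difference of -1.09 ± 0.25 (adjusted p = 0.0112) whose call was lost without 72 h MEKi M4 (-0.88, adjusted p = 0.0534). Col15a1, a basement membrane collagen, fell by 0.71 and by 2.07 (difference -1.36 ± 0.29, adjusted p = 0.00632). Fabp3, a fatty acid binding protein, was the 1 gene with a smaller response at 72 h, rising by 1.77 at 24 h and by 0.72 at 72 h (difference -1.06 ± 0.27, adjusted p = 0.032, lost when any 1 of 8 libraries was left out).

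The other genes that turned their direction did so by less than Cyp17a1 and Dmrt1, apart from Bhlhe41. Bhlhe41, a transcriptional repressor of the circadian clock, was at 11.1, 7.21, 4.98 and 3.11 CPM in 24 h DMSO against 17.6, 14.6, 8.22 and 14.6 CPM in 24 h MEKi. After 72 h the levels were 6.66, 10.4, 14.5 and 5.71 CPM in DMSO and 2.37, 2.29, 1.57 and 4.85 CPM in MEKi. Its difference of -2.83 ± 0.52 (adjusted p = 0.00121) was the most negative among genes that turned. Mybpc3, a myosin-binding protein, rose by 0.77 and fell by 0.80 (difference -1.57 ± 0.31, adjusted p = 0.00222). Ttyh1 and Rgs11, a regulator of G protein signalling, had differences of -1.51 ± 0.30 and -1.46 ± 0.31 (adjusted p = 0.00237 and 0.00485). Spart, a gene mutated in a hereditary spastic paraplegia, fell by 0.60 at 24 h, where DMSO library M5 at 136 CPM was far above the other 3 at 63.1 to 64.9 CPM. It rose by 0.80 at 72 h (difference 1.4 ± 0.26, adjusted p = 0.00127, and at least 1.06 with any single library left out).

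All 61 genes that were DEGs at neither time had estimates of opposite sign at the 2 times, lower at 24 h and higher at 72 h for 26 and the reverse for 35. The opposite signs were close to fixed by the selection. With equal signs, the difference is smaller in size than the larger change, which was itself not called. Spp1, the secreted matrix protein osteopontin, was at 64.5, 36.3, 41.8 and 46.3 CPM in 24 h DMSO and at 83.1, 95.7, 38.7 and 114 CPM in 24 h MEKi. The levels at 72 h were 47.3, 108, 63.8 and 26.2 CPM in DMSO and 21.3, 31.7, 47.7 and 42.1 CPM in MEKi, and the groups overlapped at both times. The changes of 0.80 (adjusted p = 0.0688) and -0.75 (adjusted p = 0.0738) gave a difference of -1.56 ± 0.39 (adjusted p = 0.0263), lost when any 1 of 6 libraries was left out. Ccndbp1, a cyclin D binding protein gene, changed by -0.46 at 24 h and 0.54 at 72 h (difference 1.00 ± 0.24, adjusted p = 0.0223, lost when any 1 of 3 libraries was left out). Msra, a methionine sulfoxide reductase, changed by -0.69 and 0.57 (difference 1.25 ± 0.33, adjusted p = 0.0354, lost when any 1 of 9 libraries was left out).

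Among the 196 genes that were DEGs in the same direction at both times with no called difference, those named on the falling side included vascular genes. Cd93, an endothelial cell receptor, was at 62.8, 53.7, 91.0 and 73.9 CPM in 24 h DMSO and at 9.78, 7.97, 11.7 and 10.9 CPM in 24 h MEKi. The levels at 72 h were 29.6, 29.3, 58.3 and 20.9 CPM in DMSO and 0.474, 1.15, 1.88 and 0.539 CPM in MEKi. It fell by 2.77 at 24 h and by 4.87 at 72 h, and the difference of -2.10 ± 0.68 was not called (adjusted p = 0.107, 95% interval -3.46 to -0.75), with 11 counts in 72 h MEKi. Abcc9, a potassium channel subunit of pericytes, fell by 2.85 and 3.40 (difference -0.54 ± 0.59, adjusted p = 0.751), and Espn, an actin-bundling protein, by 2.92 and 2.46 (difference 0.46 ± 0.38, adjusted p = 0.65). On the rising side, Myh8, a skeletal myosin heavy chain, rose by 1.59 and 2.16 (difference 0.57 ± 0.44, adjusted p = 0.615). Rhox8, a homeobox gene of the X-linked Rhox cluster, rose by 2.58 at 24 h and was higher at 72 h as well (difference -1.08 ± 0.60, adjusted p = 0.434).

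**Figure D5:**
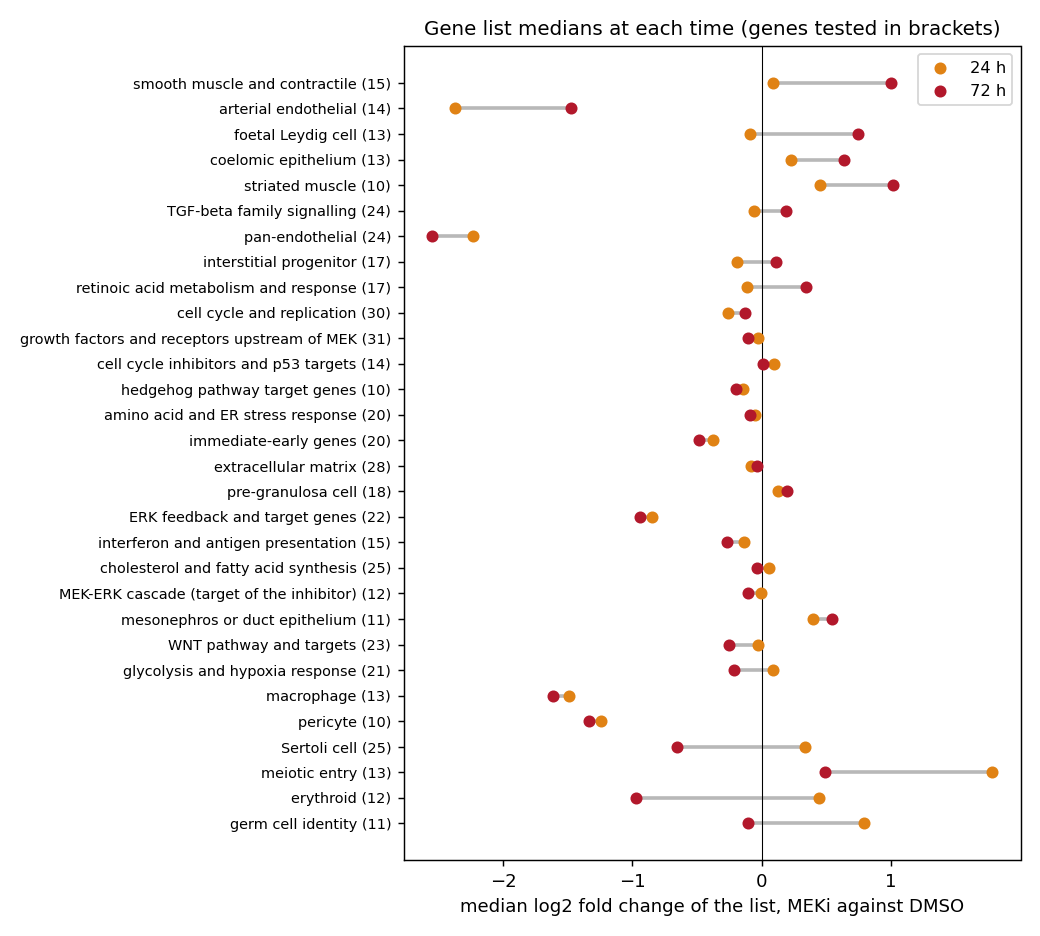
Median log2 fold change of MEKi against DMSO at 24 h and at 72 h for the 30 gene lists with at least 10 genes tested (number in brackets), ordered by the median difference, with a grey line joining the 2 times. The Sertoli cell list moves from 0.34 to -0.65 and the foetal Leydig cell list from -0.09 to 0.74, while the ERK target list stays at -0.85 and -0.94.

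Over the 32 gene lists, 26 of 521 different tested members had a called difference (4.99%, beside 1.41% of all genes tested), and 16 lists held 0. Lists chosen for this tissue with earlier results of these data known are not independent evidence of these counts. Of 14 arterial endothelial genes, 11 fell at 24 h and 7 at 72 h with 0 differences called by edgeR (5 at an unadjusted p below 0.05; DESeq2 called 1 and limma voom 0). Of 13 macrophage genes, 1 fell at 24 h and 8 at 72 h, with 0 differences at an unadjusted p below 0.05 and 0 called by any of the 3 tools. Of 30 cell cycle and replication genes, 0 were DEGs at 24 h by any of the 3 tools although 15 had an unadjusted p below 0.05 in edgeR, and 2 fell at 72 h. The estimate was lower with MEKi for 28 at 24 h and for 26 at 72 h, with medians of -0.26 and -0.13. Their summed level was 2378 to 2796 CPM in 24 h DMSO and 1914 to 2310 CPM in 24 h MEKi. At 72 h it was 2965 to 3182 CPM in DMSO and 2487 to 2911 CPM in MEKi. The median difference of this list was 0.11. Of 13 coelomic epithelium genes, 1 rose at 24 h and 6 at 72 h, and the 1 called difference, that of Wt1, was negative. The 25 cholesterol and fatty acid synthesis genes held 0 DEGs at either time and 0 called differences by any of the 3 tools, with 6, 9 and 5 genes at an unadjusted p below 0.05 at 24 h, at 72 h and for the difference. For the difference, 2046 of all 15125 genes tested had an unadjusted p below 0.05 in edgeR.

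Red cell transcripts were lower in every 72 h library than in every 24 h library. The summed level of 12 erythroid genes was 2757 to 8086 CPM in 24 h DMSO and 3408 to 8514 CPM in 24 h MEKi, against 319 to 1734 CPM in 72 h DMSO and 243 to 851 CPM in 72 h MEKi. The list held 1 gene that fell at 72 h and 0 called differences by any of the 3 tools (4 at an unadjusted p below 0.05), with a median difference of -1.09. Nfe2, an erythroid transcription factor outside that list, rose by 1.36 at 24 h and changed by -0.62 at 72 h (difference -1.98 ± 0.49, adjusted p = 0.0237, lost when any 1 of 4 libraries was left out). The part of red cell transcripts in the results was not tested.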

How the data were processed

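The RNA of GFP-negative cells was measured as tagged 3′ RNA-seq. The authors aligned reads with Rsubread and counted unique molecular identifiers per gene with scPipe, on GRCm39 with GENCODE annotation; library construction was described for germ cells and was taken to be the same here. The deposited values are whole, unnormalized molecule counts per gene, 1 column per library, and 0 columns were left unmatched. Gene symbols and positions were taken from GENCODE M39 (GRCm39), which matched 40391 of 42422 identifiers and 98.98% of counts; counting error alone sets a floor of about 3 counts over a group.

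Counts of all 40 libraries were fitted as 10 group means with edgeR 4.0.16 in R 4.3.3 (filterByExpr, TMM scaling, estimateDisp, glmQLFit, glmQLFTest, 30 residual degrees of freedom), a different test from the voom and treat procedure of the study, which was run as an alternative. Standard errors are the absolute log2 value divided by the square root of F, and intervals (95%) use the t distribution of the fit. Alternatives used limma 3.58.1 and DESeq2 1.42.0, other scalings and filters, fewer libraries, thinned counts, a replicate block and each of the 16 libraries left out. The procedure was tested on simulated counts.

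Members and gene lists were chosen with earlier results of these data known. Named genes were the 10 largest called differences in each direction with at least 10 counts in each group and a mean of 5 CPM in at least 1 group, up to 5 per class of response, and members of the lists; the 8 DEGs with fewer counts were only counted. XX, uncultured and FGF receptor inhibitor libraries entered the low-count filter, the scaling and the estimate of spread. The deposited barcode list holds no measurements and was used to check groups by eye. No promoter or protein sequences were used here. The values of 1 of the called genes are not reported here.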

Additional observations from a re-analysis of the deposited data

Results flagged for a closer look

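The count of 213 genes whose response to MEKi differed between 24 h and 72 h came from a direct test of the difference in edgeR. The 10 largest called differences in each direction among genes with enough counts are given on the log2 scale as 72 h minus 24 h. On the positive side they were 2.73 for Ebf1, 2.69 for Adra1a, 2.25 for Ntrk2, 2.23 for Cd34, 2.23 for Cyp17a1, 2.06 for 8030451A03Rik, 2.05 for Trim9, 1.92 for Angpt1, 1.90 for Ly6h and 1.88 for Lmcd1. On the negative side they were -4.84 for Stra8, -2.83 for Bhlhe41, -2.82 for Rsad2, -2.77 for ENSMUSG00000095280.1, which matched no gene of the annotation used, -2.44 for Rtp4, -2.39 for Elapor1, -2.24 for Rarres1, -2.22 for H2-Q10, -2.08 for Dmrt1 and -2.02 for Wfdc2. The differences of the other named genes stand in the text above.

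A library far from the other 3 of its group was looked for in 236 groups of 4 libraries, those of the 59 named genes with a called difference, and was found in 22 of them (9.32%); chance gives about 1 in 20, or 11.8. Library 24 h DMSO M5 held 6 of the 22, being high for Adra1a (5.83 CPM), Rsad2 (6.22 CPM) and Spart (136 CPM) and low for Kcns2 (12.8 CPM), Rarres1 (4.67 CPM) and Smad7 (44.3 CPM). Library 24 h DMSO M2 held 3 and was high for the Sertoli cell genes Aard (336 CPM), Col9a3 (294 CPM) and Dmrt1 (26.4 CPM). Library 24 h MEKi M4 held 3 and was low for Sox9 (258 CPM) and Lmcd1 (4.8 CPM) and high for Hsd3b1 (389.5 CPM). Library 72 h MEKi M4 held 3 and was high for Cyp17a1 (109 CPM), Elapor1 (5.97 CPM) and Mybpc3 (46.5 CPM).

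The other 7 were in separate libraries. Acta2 was low in 24 h MEKi M2 (336 CPM), Rtp4 was high in 24 h MEKi M6 (5.01 CPM), Rgs11 was high in 72 h DMSO M4 (49.2 CPM), Hsd3b1 was high in 72 h DMSO M5 (351 CPM) and Rsad2 was high in 72 h DMSO M6 (9.52 CPM). Gsta2 was low in 72 h MEKi M2 (42.7 CPM) and Carmn was high in 72 h MEKi M5 (84.1 CPM).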

How the results depend on the processing

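Of the 59 named genes with a called difference, 0 changed sign under any alternative, 31 kept the call with each library left out, 20 kept it in the 11 other settings apart from the tests against a 1.5-fold change, and 1, Ebf1, kept it throughout. Tests against a 1.5-fold change lowered the counts most. With edgeR's glmTreat, 8 genes differed between the times, 2 of them late and 4 early, and 157 were called at 24 h and 132 at 72 h; with limma voom and treat these counts were 1, 0, 1, 88 and 75. With no filter on low counts, 350 genes differed (153 late, 71 early). Leaving out each library gave 97 to 276 differing genes (56 to 111 late, 23 to 70 early), 359 to 581 DEGs at 24 h and 697 to 992 at 72 h. Without both 24 h DMSO M2 and 24 h MEKi M4, a choice made after seeing the data, 297 genes differed, 99 of them early. RLE scaling gave 211, no composition scaling 183, a CPM filter 200, DESeq2 257, limma voom without treat 298, only the 16 libraries 229, only the XY libraries 239 and counts thinned to the smallest library 152. The causes were not tested.

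Samples sharing a number had correlations of deviations of 0.0626 and 0.18 at 24 h, and of -0.0719, 0.163 and -0.0994 at 72 h. Samples with different numbers had correlations from -0.246 to 0.225 at 24 h and from -0.192 to 0.107 at 72 h. The value of 0.163, for M4, was thus the highest at 72 h. So few pairs cannot settle whether samples sharing a number were paired, and the main fit did not treat them as paired. With the replicate number as a block, 53 genes differed (33 late, 14 early), 268 were called at 24 h and 895 at 72 h, and 24 of the 59 named genes kept their call.

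With 4 libraries per group and 1560113 to 4836550 counts each, differences in genes with few counts in a group, such as Stra8, had wide intervals (-6.50 to -3.17).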
